A study of Mus musculus with 12 samples.

Results

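A set of 10 genes of the unfolded protein response and the integrated stress response were followed through liver and subcutaneous fat of male mice that carried either the null or the hHKDC1 OE vector. The members were taken as the rows of the count table named Hspa5, Ddit3, Atf4, Xbp1, Herpud1, Dnajb9, Trib3, Asns, Chac1 and Sdf2l1, which are 10 genes of the 54532 in the table. In all, 11 rows carry one of these names, because Ddit3 has a second identifier, and that second row holds 0 counts in every library. The vectors were adeno-associated viruses of serotype 8 whose thyroxine-binding globulin promoter works mainly in hepatocytes. The null vector held the promoter alone, and the hHKDC1 OE vector added full-length human HKDC1, a hexokinase domain-containing protein. All mice were injected at 10 weeks of age, were moved to a low-fat diet and were studied after 16 weeks, so both groups share the virus, the promoter and the diet. Each vector and tissue had 3 libraries, so that 12 were sequenced. The sample titles and the treatment label put 3 libraries of each tissue in the hHKDC1 OE group, but a description field calls replicates 2 and 3 of that group knockouts, and the members and lists whose values turn on these libraries are also given without them.

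The endoplasmic reticulum (ER) folds secreted and membrane proteins, and hepatocytes, which secrete most plasma proteins, carry a large load of them. When unfolded proteins build up, the sensors IRE1, PERK and ATF6 start the unfolded protein response. IRE1 splices Xbp1 mRNA into the form that encodes an active transcription factor, cleaved ATF6 raises chaperones, and PERK phosphorylates eIF2-alpha, which slows translation in general and favours translation of Atf4. The kinases GCN2, PKR and HRI phosphorylate the same factor in response to amino acid shortage, viral RNA and haem shortage, and this shared output is called the integrated stress response. Counts per gene do not show splicing of Xbp1 or translation of Atf4, so the values below are mRNA levels only.

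All 10 are protein-coding genes. On GRCm38 the count table places Hspa5 at chr2:34771970-34777547 (plus strand), Ddit3 at chr10:127290774-127296288 (plus strand), Atf4 at chr15:80255184-80257541 (plus strand), Xbp1 at chr11:5520659-5525893 (plus strand) and Herpud1 at chr8:94386438-94395377 (plus strand). It places Dnajb9 at chr12:44205559-44210326 (minus strand), Trib3 at chr2:152337422-152344032 (minus strand), Asns at chr6:7675169-7693254 (minus strand), Chac1 at chr2:119351229-119354381 (plus strand) and Sdf2l1 at chr16:17130138-17132383 (minus strand).

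The promoters of the 10 genes were searched for 4 motifs of these pathways, on both strands, in the 300 bases from 250 before to 50 after the RefSeq transcription start (GRCm38.p6, all 10 members matched by symbol). These starts lie 0 to 258 bases from the gene starts in the count table given above. The Trib3 RefSeq start lies 28 bases upstream of its table start, so that the Trib3 motif is after the first and before the second. The Asns and Hspa5 motifs are before the RefSeq start and after the table start. The motifs were the ER stress response element (ERSE, here CCAAT and CCACG with 9 bases between them), its second form (ERSE-II, here ATTGG and CCACG with 1 base between them), the C/EBP-ATF response element bound by ATF4 dimers (CARE, here TGATG and AA with 1 base between them) and the core of the unfolded protein response element (UPRE). ERSE lies in 1 of the 10 promoters, that of Hspa5, and in 0.119% of the 32851 promoters in the table. ERSE-II lies in the Herpud1 promoter and in 0.0365% of all promoters. CARE lies in 4 of the 10, those of Herpud1, Asns, Trib3 and Chac1, and in 3.97% of all promoters. The UPRE core lies in none of the 10 and in 0.676% of all promoters. The motif forms were chosen from general knowledge of these elements. Matches do not overlap each other in these promoters. A match is a description of letters and not a measured binding site. The stretches below run 5' to 3' on the strand of the gene with the matched motifs in capitals, and CARE lies on the other strand in Herpud1, Trib3 and Chac1, so that its reverse complement is seen there. Of the 5 members with a match, the 4 shown were taken by number of matches and then by size of fold change, which left out Hspa5. Herpud1 holds an element of each pathway in one promoter, and Asns, Trib3 and Chac1 hold the ATF4 element. The Herpud1 stretch (chr8:94386272-94386428, plus strand, GRCm38.p6) holds CARE and then ERSE-II, the Asns stretch (chr6:7693210-7693277, minus strand) ends at the base before the RefSeq start, the Trib3 stretch (chr2:152344028-152344057, minus strand) lies just after the RefSeq start, and the Chac1 stretch is at chr2:119351004-119351101 on the plus strand.
Herpud1: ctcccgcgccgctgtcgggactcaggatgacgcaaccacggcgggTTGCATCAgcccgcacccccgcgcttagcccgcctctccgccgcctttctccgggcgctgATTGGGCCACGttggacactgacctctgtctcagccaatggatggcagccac
Asns: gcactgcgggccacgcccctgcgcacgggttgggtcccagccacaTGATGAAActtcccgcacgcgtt
Trib3: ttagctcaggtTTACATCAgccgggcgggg
Chac1: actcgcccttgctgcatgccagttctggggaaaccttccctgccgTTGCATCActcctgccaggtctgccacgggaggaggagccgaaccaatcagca

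Between 15496019 and 19954971 reads were counted per library, and the 10 genes took 0.142% to 0.192% of them in liver and 0.0827% to 0.103% in fat. Endogenous mouse Hkdc1 had 0 to 8 counts per library, and human HKDC1 was not analysed here, so the vector itself was not measured. The liver libraries matched their label by hepatocyte markers, with Alb at 713600 to 1216435 counts and a summed 10-marker level of 75900 to 115000 CPM (counts scaled to a library total common to the tissue). The fat libraries matched theirs by the adipocyte markers Adipoq, Plin1 and Lep and a summed 10-marker level of 24800 to 38600 CPM, but they also carried other tissue. Summed B cell markers were 968, 56.6 and 743 CPM in hHKDC1 OE fat replicates 1 to 3 against 2.6 to 5.9 CPM in null fat, and T cell markers were 643, 51.5 and 739 CPM against 8.19 to 18.2 CPM. Plasma cell markers were 256, 66.1 and 181 CPM in hHKDC1 OE fat against 33.9 to 51.2 CPM in null fat. Macrophage markers were 575, 627 and 711 CPM in hHKDC1 OE fat against 236 to 516 CPM in null fat. Epithelium and mammary markers were 9.66 to 12.4 CPM in hHKDC1 OE fat against 16.5 to 104 CPM in null fat. Skeletal muscle markers were 560 CPM in null fat replicate 3, 1110 in hHKDC1 OE fat replicate 2 and 2700 in replicate 3, and 16500 to 24200 CPM in the other 3 fat libraries. Over all genes, hHKDC1 OE replicate 2 stood apart from the other libraries of its group in both tissues. Its chi-square per gene against replicates 1 and 3 was 121 and 100 in liver and 154 and 126 in fat, while replicates 1 and 3 differed by 40.3 and 51.2. Null fat replicate 3 differed from the other null fat libraries by 88.9 and 92.3, and those 2 from each other by 24.6. In bulk tissue, fewer cells of a type and less RNA per cell cannot be told apart.

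In liver, Sdf2l1 was the only one of the 10 genes whose hHKDC1 OE libraries all lay above the null libraries, and no member passed the test. Xbp1 and Asns were also higher in hHKDC1 OE replicates 1 and 3, while replicate 2 of that group lay within or close to the null range for all 3 genes. The groups overlapped for the other 9 members. The edgeR quasi-likelihood test over the 6 liver libraries called 0 of 13351 genes at an adjusted p under 0.05, which is 0% of all genes and 0 of the 10 members. At an unadjusted p under 0.05 it gave 927 genes, or 6.94%, and 3 of the 10 members. DESeq2 called 94 of the 12768 genes to which it gave an adjusted p, or 0.736%, and 1 of them was a member, Sdf2l1. In all, 6 members were fitted higher and 4 lower, and their median log2 fold change was 0.10 against 0.0064 over all genes tested.

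**Figure D1:**
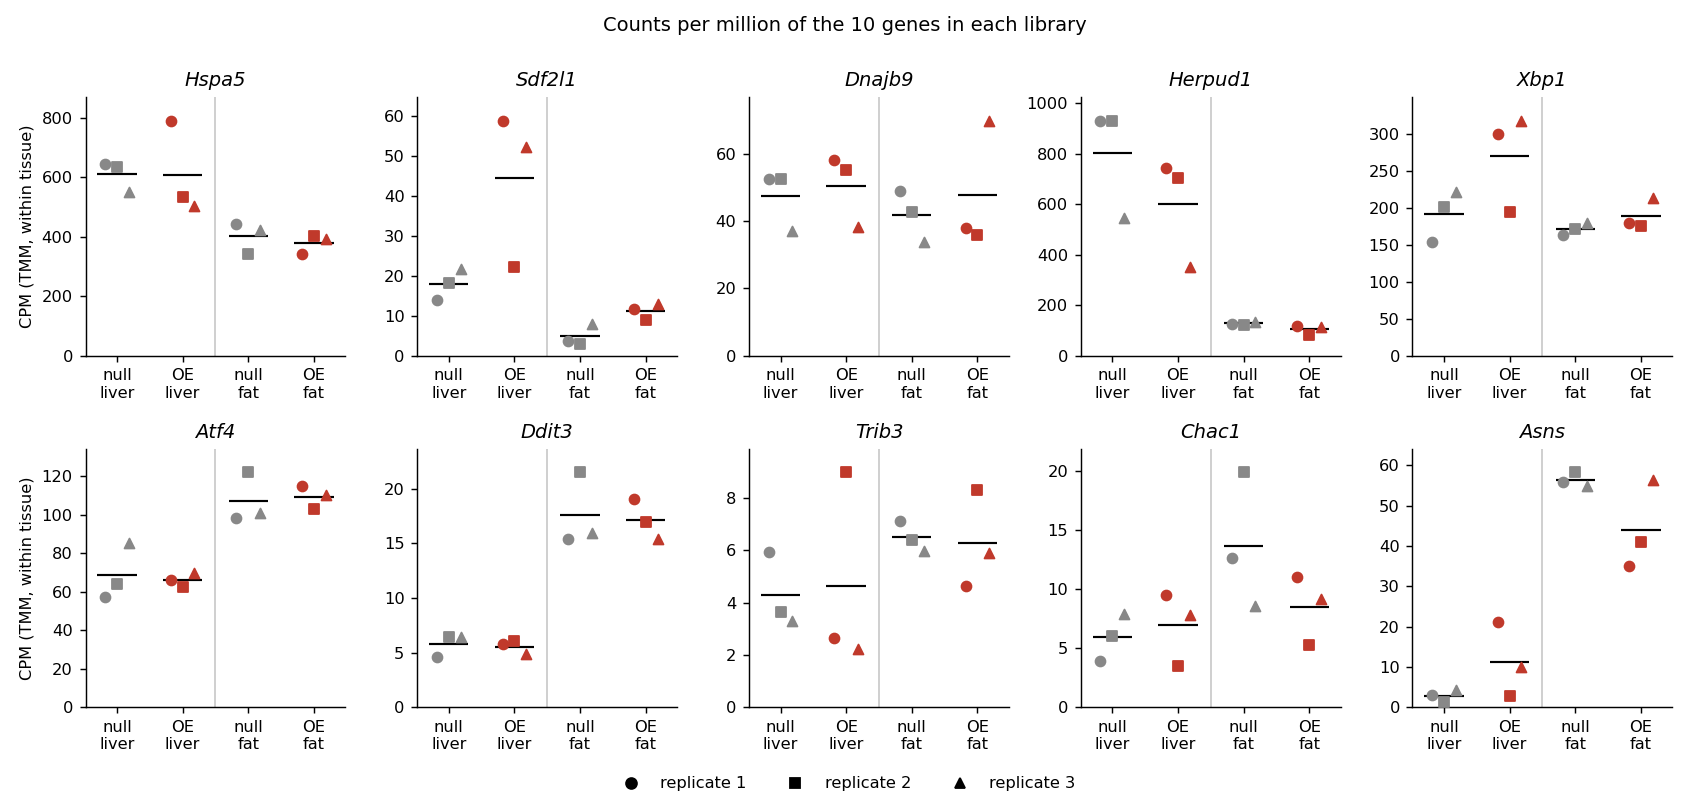
CPM (TMM-scaled within each tissue, linear axis from 0) of the 10 genes in every library. Grey symbols are null and red symbols hHKDC1 OE, shapes give the replicate number, bars the mean of 3 libraries, and the grey line separates liver from fat, whose scales are set separately. Sdf2l1 in liver reads 13.8 to 21.6 CPM in null and 22.1 to 58.8 CPM in hHKDC1 OE, and liver replicate 2 (squares) sits near the null libraries for Sdf2l1, Xbp1 and Asns.

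Among the ER chaperones, Hspa5 encodes BiP, the Hsp70 of the ER lumen that holds the sensors inactive until unfolded proteins draw it away. Hspa5 stood at 644, 636 and 550 CPM in null liver and at 791, 535 and 503 CPM in hHKDC1 OE liver, so 1 library lay above and 2 below all null libraries and the means were 610 ± 51.8 and 609 ± 158 (SD, n = 3 each). Its log2 fold change was -0.0013 ± 0.20 (SE, edgeR adjusted p = 1). Sdf2l1, a luminal protein that works with BiP and its J-domain cofactors, stood at 13.8, 18.2 and 21.6 CPM in null liver and at 58.8, 22.1 and 52.2 CPM in hHKDC1 OE liver. The groups did not overlap, but replicate 2 of hHKDC1 OE passed the highest null library by 0.5 CPM only. Of all genes tested, 6.31% had every hHKDC1 OE library above every null library and 6.18% had every one below, beside 1 and 0 of the 10 members. The means were 17.9 ± 3.91 and 44.4 ± 19.5 CPM, a log2 fold change of 1.31 ± 0.33 (SE, n = 3 per group, edgeR adjusted p = 0.458). The exact two-sided permutation test of the 6 values gave p = 0.1, the smallest that 3 against 3 allows. Dnajb9 (ERdj4), a BiP cofactor and a classical target of spliced Xbp1, stood at 52.6, 52.6 and 37.1 CPM against 58.2, 55.1 and 38.2 CPM, a log2 fold change of 0.09 ± 0.20 (edgeR adjusted p = 0.97). Replicates 1 and 2 of hHKDC1 OE lay above all null libraries and replicate 3 near the lowest of them.

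The Sdf2l1 call in liver turned on the settings, and its adjusted p ran from 1.05e-09 with no filter on low counts to 0.995 without null liver replicate 2. DESeq2 gave a log2 fold change of 1.31 with an adjusted p of 0.00557, and edgeR without hHKDC1 OE liver replicate 2 gave 1.64 with an adjusted p of 0.00455. With each of the other 5 libraries left out in turn, edgeR gave log2 values of 1.06 to 1.47 and adjusted p of 0.535 to 0.995. With the libraries described as knockouts left out, 1 hHKDC1 OE library remained and was assumed to vary like the null libraries, and Sdf2l1 then had 1.72 with an edgeR adjusted p of 0.0259. Sdf2l1 was fitted higher in each of these fits. The summed hepatocyte markers were 104000, 85900 and 75900 CPM in hHKDC1 OE liver against 111000 to 115000 CPM in null liver, and macrophage markers were 407, 241 and 230 CPM against 145 to 256 CPM. Plasma cells are rich in ER chaperones, and their 8 markers summed to 149 to 207 CPM in hHKDC1 OE liver against 182 to 216 CPM in null liver. Most of this liver sum came from genes other than Jchain, Mzb1 and Tnfrsf17. Over all 12 libraries Sdc1 had 20874 counts, the most of the 8, so the sum is a poor measure of plasma cells in liver. Of the 3 defining plasma cell markers, Mzb1 had 17, 6 and 13 counts in hHKDC1 OE liver against 5, 4 and 10 in null liver, so that replicates 1 and 3 lay above all null libraries as for Xbp1 and Asns. Jchain had 119, 51 and 115 counts against 36, 18 and 130, and Tnfrsf17 had 0 counts in each hHKDC1 OE library against 0, 0 and 2. The part of hepatocytes, macrophages and plasma cells in these values was not tested.

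Herpud1 encodes an ER membrane protein of ER-associated degradation, which sends misfolded proteins to the proteasome. Herpud1 and Hspa5 were the most highly counted members in liver, and Herpud1 stood at 930, 930 and 543 CPM in null and 743, 704 and 349 CPM in hHKDC1 OE liver. Replicate 3 was lowest in both groups, the groups overlapped, and the log2 fold change was -0.42 ± 0.31 (edgeR adjusted p = 0.847). Its promoter holds both ERSE-II and CARE, in the stretch printed above.

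Of the transcription factors, Xbp1, the target of IRE1 splicing, stood at 154, 201 and 221 CPM in null liver and 300, 194 and 318 CPM in hHKDC1 OE liver. Replicates 1 and 3 of hHKDC1 OE lay above all null libraries and replicate 2 lay between them, and the log2 fold change was 0.49 ± 0.22 (edgeR unadjusted p = 0.0495, adjusted p = 0.716). Atf4, the factor at the centre of the integrated stress response, stood at 57.4, 64.1 and 85.1 CPM against 65.9, 62.6 and 69.5 CPM, inside the null range in all 3 libraries. Ddit3, which encodes the pro-apoptotic factor CHOP, stood at 4.57, 6.38 and 6.39 CPM against 5.78, 6.01 and 4.85 CPM, also inside the null range. The log2 fold changes of Atf4 and Ddit3 were -0.06 ± 0.17 and -0.06 ± 0.24 (edgeR adjusted p = 0.975 and 0.983). Ddit3 shares 3.97% of its exon bases with Mars, a gene on the other strand, and the counting did not use strand.

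Of the ATF4 and CHOP targets, Asns, which makes asparagine from aspartate, stood at 2.96, 1.17 and 4.34 CPM in null liver and 21.2, 2.77 and 9.92 CPM in hHKDC1 OE liver. Replicates 1 and 3 lay above all null libraries and replicate 2 inside them, and the log2 fold change was 1.99 ± 0.67 (edgeR unadjusted p = 0.0149, adjusted p = 0.606). Without hHKDC1 OE liver replicate 2, Asns had 2.45 and passed with an edgeR adjusted p of 0.0438, and without replicate 1 it had 1.16 with an adjusted p of 0.937. With the libraries described as knockouts left out it had 2.90 with an edgeR adjusted p of 0.045, and with no filter on low counts 2.00 with 9.83e-10. Asns is rare in liver, at 18 to 70 counts per null library, so counting error adds to these values. Chac1, a glutathione-degrading enzyme, stood at 3.89, 6.06 and 7.87 CPM against 9.47, 3.46 and 7.84 CPM, with overlapping groups and a log2 fold change of 0.22 ± 0.39 (edgeR adjusted p = 0.953).

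Trib3, a pseudokinase that binds AKT and ATF4, ran the other way between libraries. It stood at 5.93, 3.65 and 3.29 CPM in null liver and at 2.64, 8.99 and 2.24 CPM in hHKDC1 OE liver, so replicate 2 was the highest of the 6 libraries and replicates 1 and 3 were the lowest. The means were 4.29 ± 1.43 and 4.62 ± 3.79 CPM, and the log2 fold change was 0.11 ± 0.52 (edgeR adjusted p = 0.985).

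**Figure D2:**
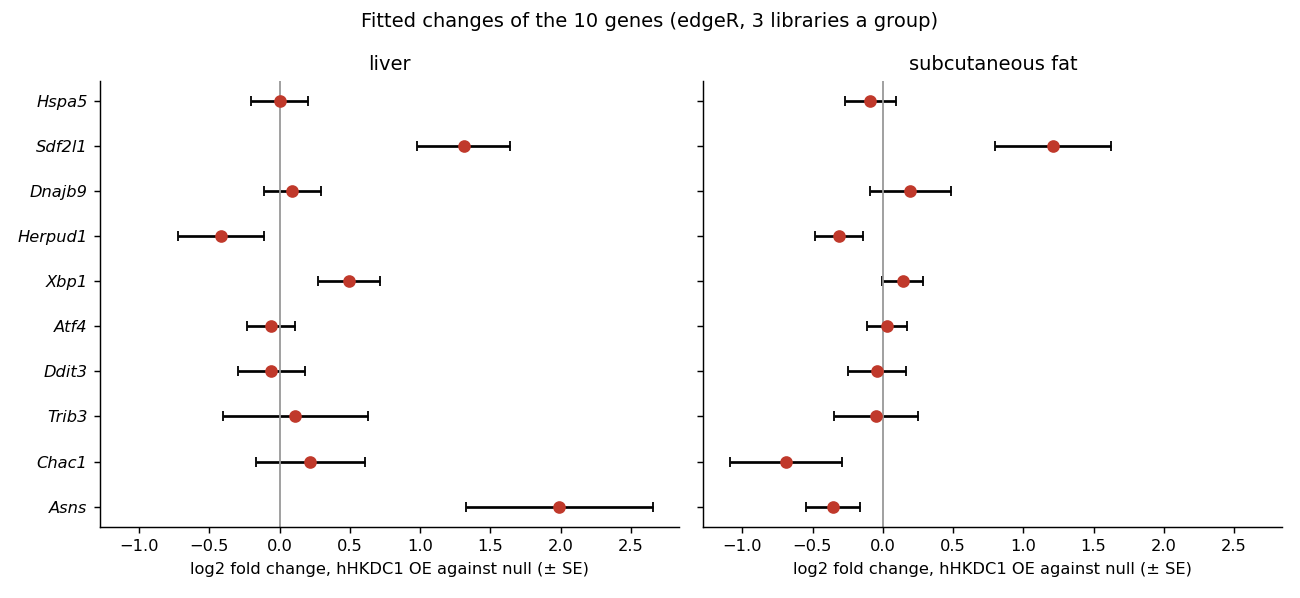
Fitted log2 fold changes of hHKDC1 OE against null for the 10 genes in liver and in subcutaneous fat, with bars of ± 1 SE (edgeR, 3 libraries per group). Asns and Sdf2l1 stand farthest from 0 in liver (1.99 and 1.31) and Sdf2l1 in fat (1.21), and none passed the adjusted threshold.

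The other genes of these pathways were read as 8 lists. The list of 14 ER chaperones and oxidoreductases, which fold and cross-link secreted proteins, held 12 genes fitted higher and 2 lower in hHKDC1 OE liver, with 0 called and a median of 0.35 on the log2 scale. Pdia6, a protein disulfide isomerase and the highest of the list, stood at 253, 243 and 247 CPM in null liver and 456, 240 and 421 CPM in hHKDC1 OE liver, a log2 fold change of 0.59 ± 0.23 (edgeR adjusted p = 0.645). The lowest was Ero1l, an ER oxidase, with -0.42 ± 0.20 (edgeR adjusted p = 0.741). Calr, a lectin chaperone chosen here after its values were seen, showed the same split at 663, 650 and 669 CPM against 1070, 666 and 952 CPM. In hHKDC1 OE liver replicate 1, 12 of the 14 chaperones lay above all 3 null libraries, in replicate 3 this was 10 of 14, and in replicate 2 it was 0 of 14 while 7 lay below all 3. Over all genes tested, 25.7% to 26.7% lay above all null libraries in each of these replicates and 25.2% to 26.3% below all of them. Hepatocyte marker sums, given above, were lower in every hHKDC1 OE liver library than in null liver. Mzb1, but not Jchain or Tnfrsf17, was above all null libraries in replicates 1 and 3. The part of these cells in the chaperone values was not tested. When the libraries described as knockouts were left out, an alternative chosen after seeing the data that keeps replicate 1 alone, 13 of the 14 chaperones were fitted higher with a median of 0.53 against -0.03 over all genes, and 0 were called. Pdia6 then had 0.88 ± 0.18 and Calr 0.69 ± 0.17 (edgeR adjusted p = 0.101 and 0.208). Of the 10 members, 6, 3 and 3 lay above all null libraries in replicates 1, 2 and 3.

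**Figure D3:**
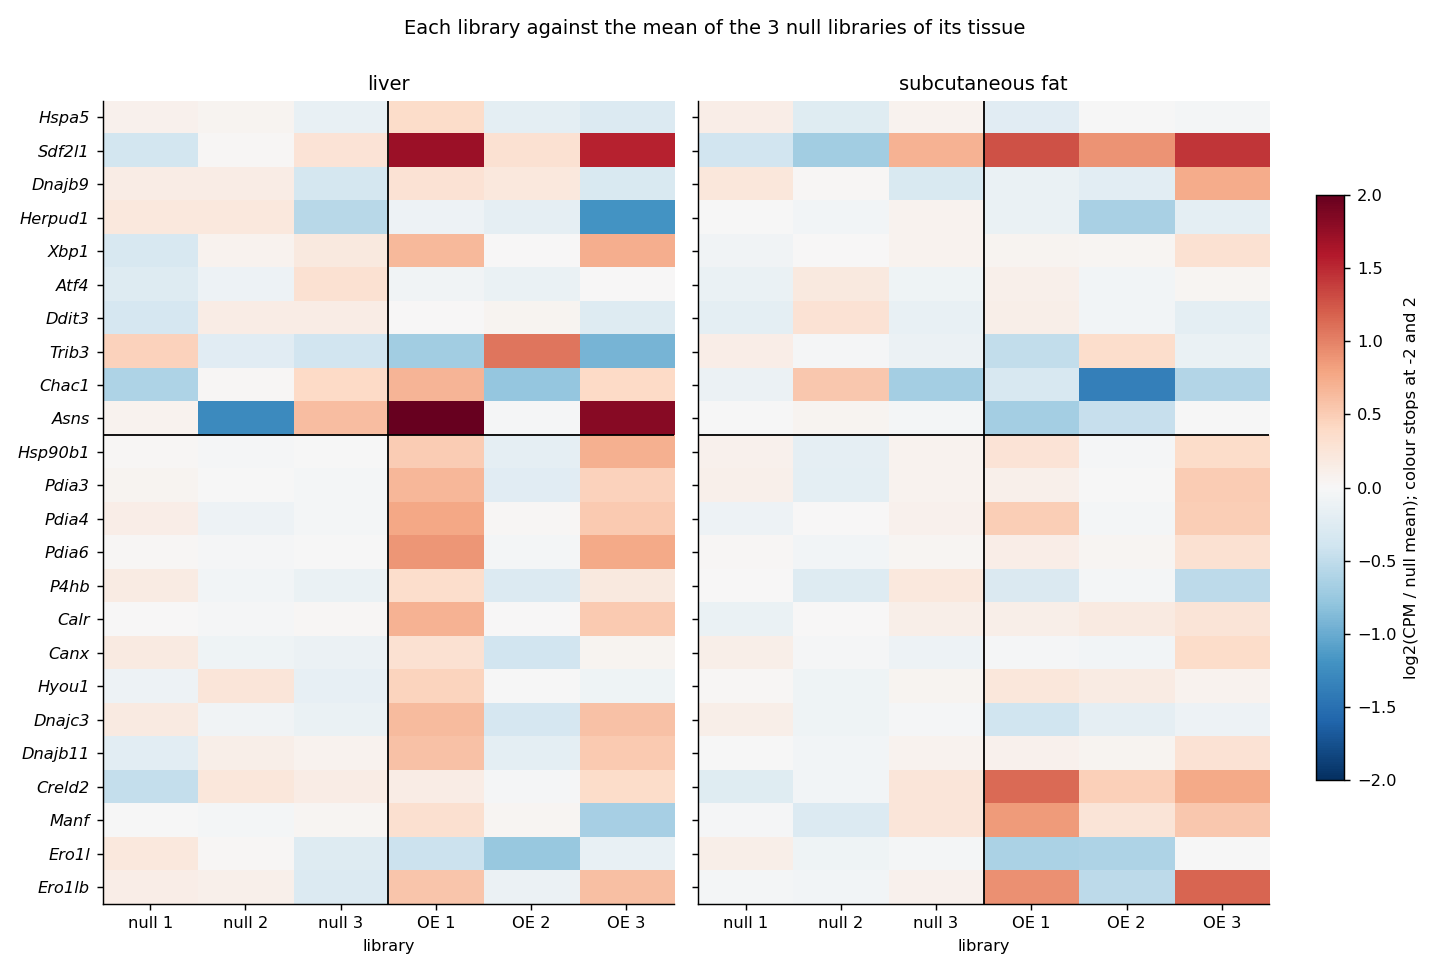
Colour map of log2(CPM / mean of the 3 null libraries of the tissue) for the 10 genes (above the line) and the 14 ER chaperones and oxidoreductases (below it), in each library of liver and fat; colours stop at -2 and 2. In liver, hHKDC1 OE replicates 1 and 3 are red for most chaperones and replicate 2 is not; over both tissues, Sdf2l1 is 1.24 to 3.29 times its null mean in the 6 hHKDC1 OE libraries.

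ER-associated degradation and translocation genes had 8 higher and 6 lower of 14 in liver, with a median of 0.0086 and none called by edgeR. Their highest gene was Derl3, a derlin that helps move misfolded proteins out of the ER, at 2.35, 3.19 and 4.09 CPM in null and 24.1, 3.40 and 54.3 CPM in hHKDC1 OE liver. Replicates 1 and 3 again stood above the null libraries and replicate 2 among them, with a log2 fold change of 3.08 ± 0.78 (edgeR adjusted p = 0.458). Without the libraries described as knockouts it had 2.91 ± 0.31 and passed (edgeR adjusted p = 0.00626), as did 1 other companion gene in liver, Ddit4, an mTORC1 inhibitor, at -2.20 ± 0.34 (edgeR adjusted p = 0.0326), beside 0.531% of all genes. Their lowest was Sec24d, a vesicle coat subunit, with -0.51 ± 0.19 (edgeR adjusted p = 0.621). The sensor list of 10 genes also holds the eIF2-alpha kinases and their substrate Eif2s1. It had 5 higher and 5 lower and a median of -0.0081. Its values ran from Ern1, which encodes IRE1, at 0.55 ± 0.19 to Atf6 at -0.16 ± 0.19, and none passed (edgeR adjusted p of at least 0.606).

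Integrated stress response targets had 7 higher and 6 lower of 13 in liver, with a median of 0.08 and none called. Gdf15, a stress-induced secreted factor, was highest at 5.74, 5.80 and 2.05 CPM in null and 13.7, 36.3 and 3.84 CPM in hHKDC1 OE liver (log2 fold change 1.99 ± 0.69, edgeR adjusted p = 0.606), with replicate 2 the highest as for Trib3. Vldlr, a lipoprotein receptor, was lowest at -1.17 ± 0.71 (edgeR adjusted p = 0.818). Of the 9 amino acid supply genes tested in liver, 6 were higher and 3 lower with a median of 0.12, from Slc7a5, the large neutral amino acid transporter, at 1.21 ± 0.35 to Slc38a2, another amino acid transporter, at -0.34 ± 0.20 (edgeR adjusted p = 0.52 and 0.807). The 12 aminoacyl-tRNA synthetases, which charge tRNAs and include many ATF4 targets, ranged only from -0.18 (Iars) to 0.16 (Cars), with 7 higher, 5 lower and a median of 0.03.

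Lists of neighbouring stress pathways, in the cytosol and in mitochondria, were counted the same way in liver. Of 10 cytosolic heat shock genes, 2 were higher and 8 lower with a median of -0.24 and 0 called. Hspb1, a small heat shock protein, was highest at 0.92 ± 0.25 and Hsph1, an Hsp70 exchange factor, lowest at -0.56 ± 0.16 (edgeR adjusted p = 0.512 and 0.52). Of 8 mitochondrial unfolded protein genes, 3 were higher and 5 lower with a median of -0.06, from Hspe1, the mitochondrial co-chaperonin, at 0.03 ± 0.18 to Clpx, a mitochondrial protease subunit, at -0.40 ± 0.16 (edgeR adjusted p = 0.986 and 0.646).

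**Figure D4:**
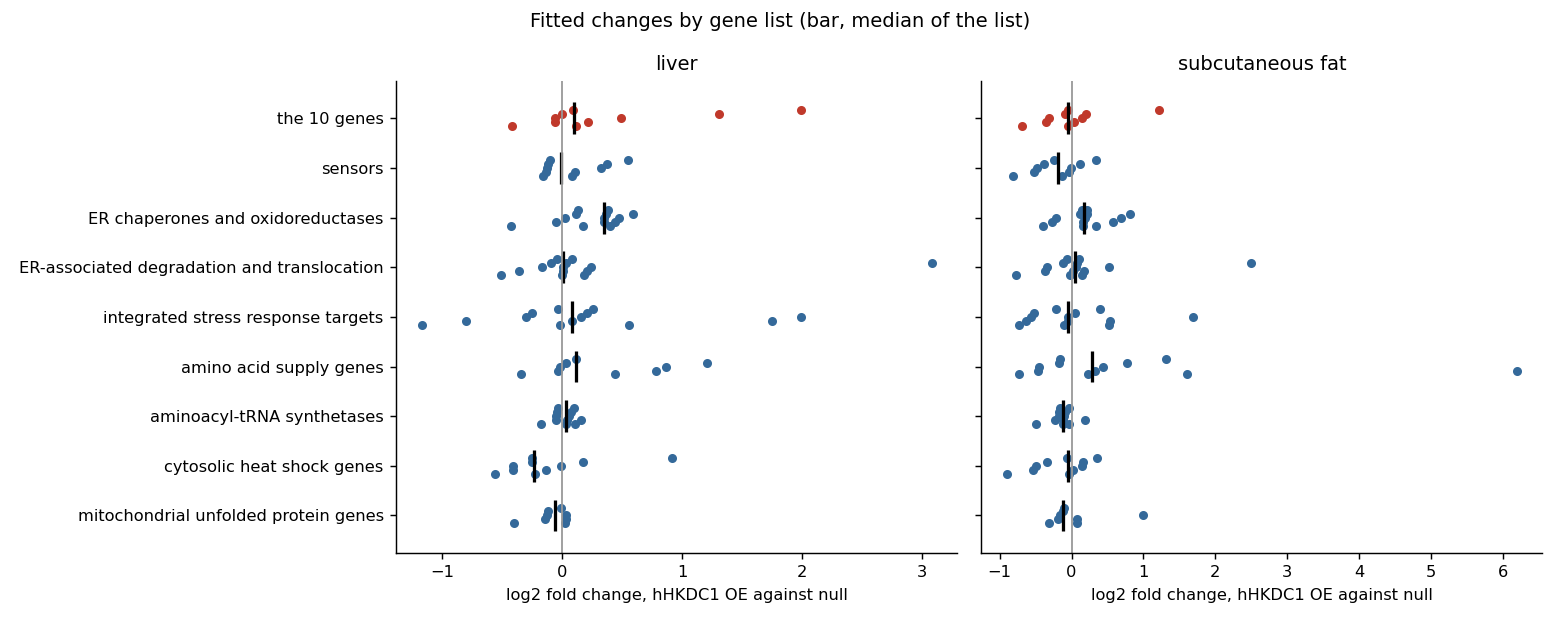
Log2 fold changes of hHKDC1 OE against null (edgeR) for each gene of the 10-gene set and of the 8 other lists, in liver and in subcutaneous fat; black bars are list medians and the horizontal scales of the panels differ. The chaperone list has a median of 0.35 in liver and 0.17 in fat, and the synthetases lie close to 0 in liver.

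In subcutaneous fat, where the promoter of the vector is not meant to be active, Sdf2l1 was again the only member with every hHKDC1 OE library above the null libraries, and Herpud1 was the only one with every library below. No member passed the test. The edgeR quasi-likelihood test over the 6 fat libraries called 0 of 16380 genes (0%), and 2903 (17.7%) had an unadjusted p under 0.05, among them 1 of the 10 members. DESeq2 called 1446 genes, 7.46% of those to which it gave an adjusted p, and 0 members. Every hHKDC1 OE library lay above every null library for 12.5% of all genes tested and below for 10.2%, so 1 of 10 members in each direction is close to the share of all genes. In all, 4 members were fitted higher and 6 lower, and their median log2 fold change was -0.05, beside -0.05 over all genes tested.

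Sdf2l1 stood at 3.71, 2.98 and 7.86 CPM in null fat and 11.7, 9.04 and 13 CPM in hHKDC1 OE fat, from means of 4.85 ± 2.64 to 11.2 ± 2.00 CPM (SD, n = 3 each). The log2 fold change was 1.21 ± 0.41 (SE, edgeR adjusted p = 0.211), it was 1.22 with an adjusted p of 0.0604 in DESeq2, and it lay between 0.91 and 1.72 with any one library left out. Without the libraries described as knockouts it was 1.26 (edgeR adjusted p = 0.274). The lowest hHKDC1 OE value is that of replicate 2, which also has the lowest B cell, T cell and plasma cell sums of that group. All 3 sums, and the macrophage sum, exceed null fat in every hHKDC1 OE library. Of the defining plasma cell markers, Jchain and Mzb1 were also lowest in replicate 2 of hHKDC1 OE fat. Tnfrsf17 was not, at 12, 20 and 4 counts in replicates 1 to 3 against 4, 3 and 7 in null fat. The part of these cells in the Sdf2l1 result was not tested. Hspa5 stood at 444, 341 and 424 CPM against 343, 402 and 393 CPM, inside the null range, with a log2 fold change of -0.09 ± 0.18 (edgeR adjusted p = 0.811). Dnajb9 stood at 48.9, 42.6 and 33.8 CPM against 37.9, 35.9 and 69.9 CPM, where only replicate 3 lay above the null libraries (0.20 ± 0.29, edgeR adjusted p = 0.735).

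Herpud1 stood at 127, 123 and 135 CPM in null fat and 117, 81.8 and 112 CPM in hHKDC1 OE fat, a log2 fold change of -0.31 ± 0.17 (edgeR adjusted p = 0.373). Hepatocyte markers were also lower in hHKDC1 OE fat, summing to 2280, 815 and 1210 CPM against 2620, 2680 and 7690 CPM in null fat. Scaled by Alb to null liver, liver RNA would hold 15.5%, 15.9% and 39.8% of the Herpud1 counts in null fat replicates 1 to 3 and 5.67% to 11% in hHKDC1 OE fat. Its part in the difference was not tested. For Sdf2l1, the same scaling gives 11.9% to 15.4% in null fat and 1.15% to 2.49% in hHKDC1 OE fat. That scaling takes null liver as the source for both groups. In hHKDC1 OE liver Alb had 713600 to 946040 counts against 1068793 to 1216435 in null liver, and Sdf2l1 416 to 979 against 223 to 348. The Sdf2l1 shares in hHKDC1 OE fat would be larger with hHKDC1 OE liver as the source. The part of liver RNA in the Sdf2l1 values was not tested.

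The factors of both pathways were close between the groups in fat. Xbp1 stood at 163, 172 and 180 CPM against 179, 176 and 213 CPM (log2 fold change 0.14 ± 0.15, edgeR adjusted p = 0.619). Atf4 stood at 98, 122 and 101 CPM against 115, 103 and 110 CPM, inside the null range (0.03 ± 0.14, edgeR adjusted p = 0.918). Ddit3 stood at 15.4, 21.5 and 15.9 CPM against 19.0, 16.9 and 15.4 CPM (-0.04 ± 0.21, edgeR adjusted p = 0.922). The groups overlapped for each of these genes.

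The downstream enzymes were mixed in fat. Asns, at 55.8, 58.3 and 54.9 CPM in null fat, spread to 35.0, 40.9 and 56.3 CPM in hHKDC1 OE fat, where 2 libraries lay below all null libraries (-0.36 ± 0.19, edgeR adjusted p = 0.372). Chac1 stood at 12.6, 19.9 and 8.56 CPM against 11, 5.28 and 9.16 CPM, and replicate 2 of hHKDC1 OE was the lowest library (-0.69 ± 0.40, edgeR adjusted p = 0.395). Trib3 stood at 7.11, 6.39 and 5.99 CPM against 4.64, 8.31 and 5.90 CPM, with replicate 2 highest as in liver (-0.05 ± 0.30, edgeR adjusted p = 0.942).

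The companion lists in fat had no gene past the threshold by edgeR. Of 14 ER chaperones and oxidoreductases, 11 were higher and 3 lower with a median of 0.17 against -0.05 over all genes tested. Creld2, an ER stress-induced disulfide isomerase, was highest at 12.2, 14.0 and 17.2 CPM in null and 31.6, 20.2 and 24.4 CPM in hHKDC1 OE fat (0.81 ± 0.24, edgeR adjusted p = 0.164), with no overlap, and Ero1l was lowest at -0.39 ± 0.21 (edgeR adjusted p = 0.363). Above all null libraries lay 8, 5 and 11 of the 14 chaperones in hHKDC1 OE fat replicates 1 to 3, beside 33.7%, 25.5% and 34.3% of all genes tested. These counts are highest in the replicates with the highest B and T cell sums, and the part of those cells was not tested.

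Derl3 was the highest degradation gene in fat too, at 0.122, 0.62 and 1.12 CPM in null and 5.16, 1.17 and 4.30 CPM in hHKDC1 OE fat (2.49 ± 0.83, edgeR adjusted p = 0.208), and Sec24d the lowest at -0.78 ± 0.31 (edgeR adjusted p = 0.264), in a list with 8 higher and 6 lower of 14. Of the 10 genes of the sensor list, 2 were higher and 8 lower with a median of -0.19. They ran from Atf6b at 0.34 ± 0.16 to Creb3l3, a liver-enriched relative of Atf6, at -0.82 ± 0.58 (edgeR adjusted p = 0.322 and 0.474). Creb3l3 stood at 8.82, 8.56 and 29.5 CPM in null fat and 13.3, 5.23 and 8.12 CPM in hHKDC1 OE fat, highest in the library with the most Alb, and the part of liver RNA in its value was not tested.

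Of the 13 integrated stress response targets, 5 were higher and 8 lower in fat with a median of -0.05, from Gdf15 at 1.69 ± 0.82 to Ddit4 at -0.72 ± 0.50 (edgeR adjusted p = 0.327 and 0.468). Of the 12 amino acid supply genes, 7 were higher and 5 lower with a median of 0.28. Slc7a11, the cystine-glutamate exchanger, was highest, at 0.304, 0.062 and 0.107 CPM in null and 13.7, 1.22 and 21.0 CPM in hHKDC1 OE fat (6.19 ± 1.18, edgeR adjusted p = 0.133), with replicate 2 again the lowest of hHKDC1 OE. The null values are 5, 1 and 2 counts, so the size of this difference is poorly known. Slc7a11 and Derl3 in fat are both lowest in the hHKDC1 OE replicate with the lowest B cell and T cell sums, and the part of those cells was not tested. Without the libraries described as knockouts, 5 companion genes passed in fat, beside 5.58% of all genes. They were Slc7a11 (6.38), Slc7a5 (1.82), Mthfd2, a mitochondrial folate enzyme (1.84), Hspe1 (0.86) and Sec24d (-1.36), with edgeR adjusted p of 0.012, 0.0342, 0.0347, 0.0406 and 0.0209. Pycr1, a proline synthesis enzyme, was lowest at -0.74 ± 0.50 (edgeR adjusted p = 0.458). Of the 12 aminoacyl-tRNA synthetases, 1 was higher and 11 lower with a median of -0.12, from Sars at 0.18 ± 0.14 to Eprs at -0.50 ± 0.17 (edgeR adjusted p = 0.513 and 0.211).

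Cytosolic heat shock genes had 4 higher and 6 lower of 10 in fat, from Hsp90ab1 at 0.36 ± 0.23 to Hspa1a at -0.90 ± 0.48 (edgeR adjusted p = 0.442 and 0.366). Hspa1a and Hspa1b are near-identical copies, so their counts are uncertain. Mitochondrial unfolded protein genes had 3 higher and 5 lower of 8, from Hspe1 at 1.00 ± 0.34 to Yme1l1, a mitochondrial protease, at -0.31 ± 0.16 (edgeR adjusted p = 0.211 and 0.355).

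An interaction term fitted to all 12 libraries asked whether the vector effect differed between tissues. edgeR called 0 of 17070 genes (0%) and 0 of the 10 members, with 2163 genes and 1 member at an unadjusted p under 0.05, and DESeq2 called 497 genes (2.88% of those with an adjusted p) and 0 members. The one member was Asns, whose effect in fat was below that in liver by 2.27 ± 0.80 on the log2 scale (edgeR unadjusted p = 0.0149, adjusted p = 0.257). Asns passed in 1 of the alternatives, the fit with no filter on low counts, with -2.29 and an edgeR adjusted p of 0.0385. The Sdf2l1 effects in the tissues differed by -0.04 ± 0.58 on the log2 scale (edgeR adjusted p = 1). The fitted differences of the other 8 members ran from -0.84 (Chac1) to 0.19 (Herpud1 and Dnajb9), none past the threshold.

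Between the tissues of null mice, 7 of the 10 members passed the test, a share close to that of all genes. Hspa5, Xbp1, Herpud1, Dnajb9 and Sdf2l1 were lower in null fat than in null liver, Asns and Ddit3 were higher, and Atf4, Trib3 and Chac1 did not pass the test. The edgeR quasi-likelihood test called 5163 of 15259 genes higher in fat (33.8%) and 4647 lower (30.5%), and 2 and 5 of the 10 members. These counts are relative to a scaling. When library sizes were used without TMM factors, the median log2 difference over all genes moved from 0.09 to 0.98, and the split became 9012 higher and 2286 lower.

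Herpud1 was the highest member per length in null liver, at 558, 539 and 312 FPKM, and stood at 40.4, 38.3 and 43.9 FPKM in null fat, a log2 difference of -3.57 ± 0.27 (SE, n = 3 per tissue, edgeR adjusted p = 1.82e-05). Sdf2l1 stood at 17.4, 22.3 and 26.1 FPKM in null liver and 2.48, 1.95 and 5.38 FPKM in null fat (-2.80 ± 0.38, edgeR adjusted p = 0.000385). Hspa5 stood at 213, 204 and 174 FPKM against 77.6, 58.4 and 75.9 FPKM (-1.53 ± 0.19, edgeR adjusted p = 0.000216). The tissues did not overlap for these 3 genes, and the highest fat values of Sdf2l1 and Herpud1 were those of null fat replicate 3, the library with the most Alb.

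Dnajb9 stood at 28.9, 27.9 and 19.5 FPKM against 14.2, 12.1 and 10 FPKM (-1.12 ± 0.20, edgeR adjusted p = 0.00141), and Xbp1 at 66.6, 83.8 and 91.1 FPKM against 37.1, 38.3 and 42.1 FPKM (-1.10 ± 0.17, edgeR adjusted p = 0.000767). With library size alone these differences shrank to -0.23 and -0.21 and no longer passed (edgeR adjusted p = 0.256 and 0.334). Asns ran the other way, at 1.52, 0.58 and 2.12 FPKM in null liver and 15.1, 15.5 and 15.2 FPKM in null fat, a log2 difference of 3.38 ± 0.38 (edgeR adjusted p = 0.00013) that passed in every alternative tried. Ddit3 stood at 3.74, 5.04 and 4.99 FPKM against 6.67, 9.09 and 7.05 FPKM (0.68 ± 0.23, edgeR adjusted p = 0.0326), and its call was lost without null liver replicate 1, 2 or 3 or null fat replicate 2, with log2 values of 0.53 to 0.73 and adjusted p of 0.0524 to 0.104.

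Atf4 stood at 34.1, 36.8 and 48.3 FPKM in null liver and 30.8, 37.4 and 32.6 FPKM in null fat (-0.30 ± 0.18, edgeR adjusted p = 0.176), and Trib3 at 3.91, 2.32 and 2.07 FPKM against 2.48, 2.18 and 2.14 FPKM (-0.34 ± 0.31, edgeR adjusted p = 0.359). With library size alone both had the opposite sign, and Atf4 was then called higher in fat (0.58, edgeR adjusted p = 0.022) while Trib3 did not pass (0.56, edgeR adjusted p = 0.117). Chac1 stood at 3.33, 5.01 and 6.44 FPKM against 5.72, 8.83 and 3.96 FPKM (0.27 ± 0.37, edgeR adjusted p = 0.545) and was called higher in fat with library size alone (1.13, edgeR adjusted p = 0.0243).

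**Figure D5:**
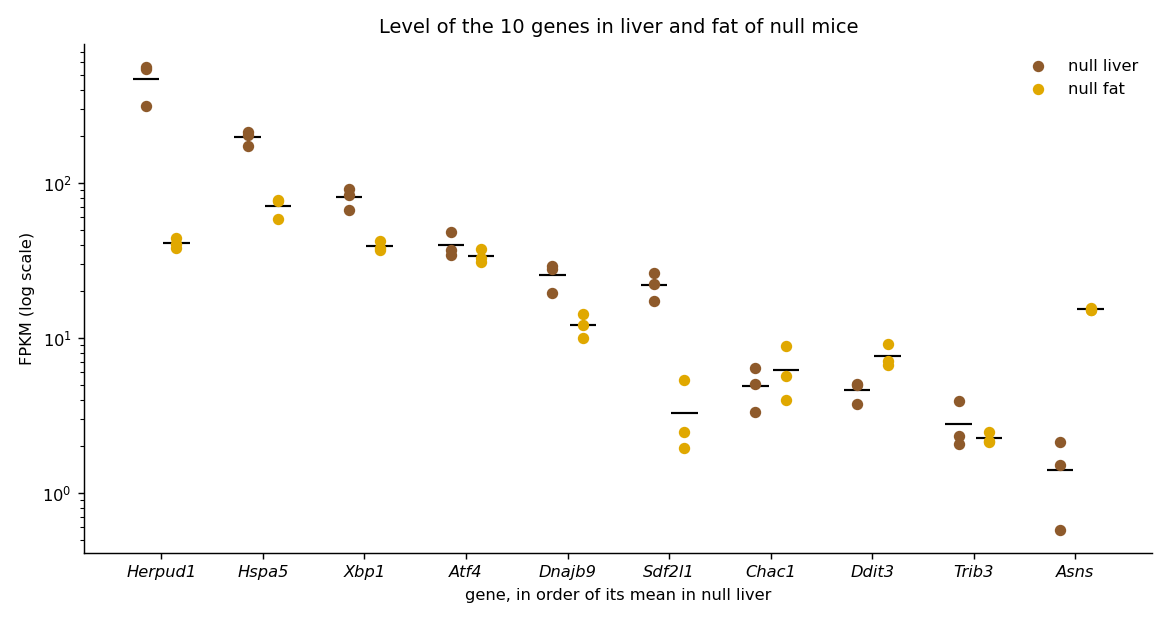
FPKM of the 10 genes (log axis) in the 3 null liver and 3 null fat libraries, ordered by their mean in null liver; bars are means. Herpud1 leads in liver with a mean of 470 FPKM and stands at 40.9 FPKM in fat, while Asns is lowest in liver at 1.41 FPKM and stands at 15.3 FPKM in fat.

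The order of levels per length differed between the tissues. In null liver the mean FPKM ran Herpud1 (470 ± 137), Hspa5 (197 ± 20.4), Xbp1 (80.5 ± 12.6), Atf4 (39.7 ± 7.53), Dnajb9 (25.4 ± 5.18), Sdf2l1 (21.9 ± 4.33), Chac1 (4.93 ± 1.55), Ddit3 (4.59 ± 0.74), Trib3 (2.77 ± 1.00) and Asns (1.41 ± 0.78; SD, n = 3 each). The ranges of Dnajb9 and Sdf2l1 overlapped, as did those of each neighbouring pair from Chac1 to Asns. In null fat the order was Hspa5 (70.7 ± 10.6), Herpud1 (40.9 ± 2.84), Xbp1 (39.2 ± 2.61), Atf4 (33.6 ± 3.45), Asns (15.3 ± 0.19), Dnajb9 (12.1 ± 2.07), Ddit3 (7.60 ± 1.30), Chac1 (6.17 ± 2.46), Sdf2l1 (3.27 ± 1.84) and Trib3 (2.26 ± 0.19). Neighbouring pairs overlapped from Herpud1 to Atf4 and from Ddit3 to Trib3 in this order, and the other neighbouring pairs did not. In hHKDC1 OE liver, the mean of Sdf2l1, 53.7 ± 24.3 FPKM, ranked above that of Atf4 with overlapping ranges. Herpud1 again had the highest mean there, but its range of 200 to 432 FPKM overlapped that of Hspa5, 159 to 254 FPKM.

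The companion lists were also counted between the null tissues, beside 33.8% of all genes called higher in fat and 30.5% lower. Of the 14 ER chaperones and oxidoreductases, 13 were called lower in null fat and 0 higher, from Ero1l at -0.19 ± 0.16 (edgeR adjusted p = 0.338) to Ero1lb, the second ER oxidase, at -3.02 ± 0.16 (edgeR adjusted p = 4.57e-06). Degradation and translocation genes had 12 of 14 called lower and 0 higher, from Edem3, an ER mannosidase, at -0.16 ± 0.14 to Derl3 at -3.26 ± 0.65 (edgeR adjusted p = 0.347 and 0.00285). All 8 mitochondrial unfolded protein genes were called lower, from Yme1l1 at -0.57 ± 0.21 to Hspe1 at -1.98 ± 0.16 (edgeR adjusted p = 0.0403 and 2.25e-05). The sensor list was split, with 4 higher and 4 lower of 10, from Creb3l2 at 1.38 ± 0.13 to Creb3l3 at -5.39 ± 0.55 (edgeR adjusted p = 5.44e-05 and 7.59e-05). These counts rest on the TMM scaling to different degrees. With library size alone, chosen for the lists after seeing the data, 59.1% of all genes were called higher and 15% lower. The chaperones then had 13 of 14 called lower and 1 higher (Ero1l, 0.71), the degradation genes 7 lower and 2 higher, the mitochondrial genes 2 lower and 0 higher of 8, and the sensors 2 lower and 6 higher.

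Amino acid supply genes had 7 of the 11 tested called higher in null fat and 2 lower. Phgdh, the first enzyme of serine synthesis, had 1, 0 and 1 counts in the null liver libraries against 20136 over the null fat libraries, a ratio of 4900 per TMM-scaled library total (exact conditional 95% interval 1360 to 40500, for counting error only). Per unscaled library total the ratio is 9080 (2510 to 75000). Shmt2, mitochondrial serine hydroxymethyltransferase, was lowest at -3.93 ± 0.21 (edgeR adjusted p = 4.85e-06). Integrated stress response targets had 6 called higher and 5 lower of 13, from Nupr1, a stress-induced chromatin protein, at 5.38 ± 0.32 to Gdf15 at -4.00 ± 0.68 (edgeR adjusted p = 6.71e-06 and 0.00127). Aminoacyl-tRNA synthetases had 1 higher and 6 lower of 12, from Wars at 1.29 ± 0.12 to Aars at -1.93 ± 0.15 (edgeR adjusted p = 4.29e-05 and 2.23e-05). Cytosolic heat shock genes had 1 higher and 6 lower of 10, from Hspb1 at 1.62 ± 0.20 to Hspa1b at -2.23 ± 0.23 (edgeR adjusted p = 0.000206 and 8.05e-05). With library size alone the calls were 9 higher and 2 lower for amino acid supply genes, 7 and 5 for stress response targets, 7 and 2 for synthetases and 4 and 2 for heat shock genes, so the balance of the last 2 lists turned.

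Among the 12 libraries, the summed level of the 10 genes ranged from 1355 to 2056 CPM in liver and from 873 to 997 CPM in fat, on the scale of each tissue. The highest liver sum was that of hHKDC1 OE replicate 1, where Hspa5, Dnajb9, Asns, Chac1 and Sdf2l1 were each at their highest of the 6 liver libraries. The lowest was that of hHKDC1 OE replicate 3, where Hspa5, Herpud1 and Trib3 were at their lowest while Xbp1 was at its highest. These 2 libraries of hHKDC1 OE liver shared high Sdf2l1, Xbp1 and Asns but stood at opposite ends for Hspa5.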

How the data were processed

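RNA of liver and subcutaneous fat was sequenced from libraries without strand information, 3 for each tissue and vector. Per the study's methods, the authors mapped reads with STAR 2.5 and 2.6.1 and counted them per gene with HTSeq 0.6.1. The deposited count table holds raw counts per gene, and the authors also deposited FPKM, which were used for levels between genes. The methods name a human reference, but the identifiers are mouse Ensembl genes whose member positions match GENCODE M21 (GRCm38). The authors' own fold changes and p-values were not used. Groups follow the sample titles.

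Each tissue was fitted alone with edgeR 4.0.16 (R 4.3.3, quasi-likelihood test, TMM, filterByExpr, Benjamini-Hochberg over all genes tested, threshold 0.05), null fat against null liver likewise, and the interaction over 12 libraries. CPM values are TMM-scaled within the fit. SE is the absolute log2 fold change divided by the square root of F. The study gives 3 mice per group for fat, and the labels do not say whether the liver libraries came from separate mice, so p-values there measure only the spread between these libraries, which may be technical. Alternatives were DESeq2 1.42.0, other scalings and filters, limma 3.58.1 on log2(FPKM + 1) and log2(FPKM + 0.1), a replicate block, all 12 libraries in 1 fit and libraries left out. Scripts were tested on simulated data. Replicates differed by 19.8 to 154 in chi-square per gene, far over sampling noise, and none was counted as a repeat of another.

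The members and gene lists were chosen with earlier results of these data known. Named from each list were genes past the threshold (at most 5 by p) or, with none, the highest and lowest; between null tissues the highest and lowest; marker lists as sums. Promoters were scanned for all members and shown for those with motif matches, at most 4, by number of matches and then by fold change. Marker lists for macrophages (145 to 407 CPM in liver, 236 to 711 CPM in fat), fibroblasts (146 to 198 and 2200 to 6350 CPM), and epithelium and mammary cells (284 to 366 and 9.66 to 104 CPM) were also summed. Of the last list, Krt5 and Krt14 had 0 counts in every liver library and Krt8 had 3008 to 3853. The liver sum of that list therefore rests on genes other than Krt5 and Krt14. In liver, B cell, T cell, plasma cell, adipocyte and skeletal muscle markers summed to at most 5.23, 9.18, 216, 222 and 34.1 CPM. The plasma cell sum there came mostly from genes other than Jchain, Mzb1 and Tnfrsf17.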

Additional observations from a re-analysis of the deposited data

How the results depend on the processing

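Called genes in liver, 0 by edgeR with TMM, became 94 with DESeq2, 2 with library size alone, 327 with no filter on low counts, 3 and 5 with limma on FPKM (pseudocounts 1 and 0.1), 76 with the libraries described as knockouts left out and 0 to 146 with single libraries left out, the 146 without hHKDC1 OE replicate 2. Members called in liver were 1 with DESeq2, beside 94 of 12768 genes, and 2 with no filter, beside 327 of 24792. With single libraries left out they were 0 to 2, the 2 without hHKDC1 OE replicate 2, beside 146 of 13587 genes. In fat, called genes became 1446 with DESeq2, 803 with no filter, 1 with limma (pseudocount 1), 876 with 12 libraries in 1 fit, 1024 with the libraries described as knockouts left out and 0 to 3251 with single libraries left out, the 3251 without hHKDC1 OE replicate 2 and 2 without null replicate 3, and members called stayed at 0 in all 16 alternatives. For the interaction, called genes became 497 with DESeq2, 479 with no filter and 0 to 1211 with single libraries left out, the 1211 without hHKDC1 OE fat replicate 2, and 1 member was called with no filter. Between null tissues, 7339 to 11298 genes and 6 or 7 members were called. The causes were not tested.

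The replicate number was tried as a block. Same-numbered libraries had correlated deviations of -0.113 to 0.213, over 0.1 in 4 of 12 pairs, so the numbers were not taken to pair the samples. In the liver comparison and between null tissues 5 of 6 libraries correlated best with their own number, in fat 0. The replicate block gave 17 called genes in liver, 168 in fat and 4 for the interaction, and changed no call of a member.

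Over the alternatives, 569 of 660 member values kept direction and side of the threshold, 76 changed sign, and of those with the same sign 6 lost a call and 9 gained one. Of the sign changes, 1 also gained a call, Atf4 between null tissues with library size alone. In liver, Hspa5 (-0.0013) became 0.0060 with upper-quartile factors, 0.0465 with library size alone, 0.0068 with no filter, 0.0044 with at least 10 counts in every library and 0.37 without the libraries described as knockouts; Trib3 (0.11) became -0.12 with the replicate block, -0.0807 and -0.157 with limma (pseudocounts 1 and 0.1) and -0.70 without the libraries described as knockouts; and Ddit3 became 0.0012 without them. With single libraries left out, liver values ran from -0.23 to 0.12 (Hspa5), -0.81 to 0.44 (Trib3), -0.20 to 0.0297 (Ddit3), -0.0721 to 0.54 (Chac1), -0.18 to 0.12 (Atf4) and -0.0591 to 0.26 (Dnajb9). In fat, library size alone shifted the all-gene median from -0.05 to 0.11 and gave Hspa5 0.0634, Ddit3 0.12 and Trib3 0.11; 12 libraries in 1 fit gave Ddit3 0.0156 and Trib3 0.0085; limma gave Atf4 -0.0166 and -0.0169; and without the libraries described as knockouts Ddit3 was 0.10 and Dnajb9 -0.15. With single libraries left out, fat values ran from -0.16 to 0.0843 (Ddit3), -0.31 to 0.13 (Trib3), -0.0606 to 0.0932 (Atf4) and -0.18 to 0.36 (Dnajb9). Between null tissues, library size alone gave Atf4 0.58 and Trib3 0.56, and Chac1 ran from -0.0523 to 0.54 with single libraries left out. For the interaction, Ddit3 became -0.0032 with DESeq2 and -0.0099 and -0.0065 with limma; Hspa5 0.0169 with library size alone and 0.0276 with the replicate block; Trib3 0.12 with the replicate block and 0.0258 with limma (pseudocount 0.1); and Sdf2l1 0.16 and 0.0621 under the same settings. With single libraries left out, interaction values ran from -0.16 to 0.22 (Ddit3), -0.30 to 0.23 (Hspa5), -0.53 to 0.83 (Trib3), -0.48 to 0.34 (Sdf2l1), -0.0625 to 0.27 (Atf4), -0.0811 to 0.41 (Herpud1) and -0.33 to 0.34 (Dnajb9).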
